A study of Homo sapiens with 8 samples.

Results

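HepG2, a human hepatocellular carcinoma line, was exposed for 24 h to 2 µM benzo[a]pyrene (BaP) or to the solvent alone, 0.5% DMSO (vehicle), and its poly-A RNA was sequenced. BaP against vehicle at 24 h comprises 4 of the 8 libraries of the study, taken by their titles, with 2 libraries in each group. The other 4 libraries are the same exposures at 12 h, with their own vehicle libraries. All groups share the cell line, for which the labels name no genetic modification, the medium and the DMSO solvent, and the labels call the replicates independent experiments, without saying which libraries of different groups shared one. The expected counts per gene totalled 2592272 and 16533490 in BaP replicates 1 and 2 and 11844661 and 5590972 in vehicle replicates 1 and 2. Of 49733 gene IDs in the files, 14746 passed a filter on low counts and were tested. Replicate numbers below refer to the 24 h libraries, n = 2 libraries per group throughout, levels are CPM (counts scaled for library depth but not for gene length), and fold changes are log2 of BaP over vehicle ± SE. Genes were called higher or lower at an adjusted p under 0.05, and "rose" and "fell" are used of called genes.

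BaP is a polycyclic aromatic hydrocarbon from combustion. It binds the aryl hydrocarbon receptor (AHR), a cytosolic transcription factor that moves to the nucleus, pairs with ARNT and switches on cytochrome P450 genes such as CYP1A1, whose products oxidise BaP to epoxides and quinones. The diol epoxides bind DNA and the adducts activate p53, the transcription factor that drives arrest, repair and death genes, while quinones and electrophiles release NRF2 from KEAP1 to drive reductases and glutathione genes. Liver cells also make cholesterol and fatty acids under the control of the sterol-sensing factors SREBP2 and SREBP1, the products of SREBF2 and SREBF1.

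The libraries carried the markers of their label. Of 13 hepatocyte and HepG2 markers all were tested, and their summed level ranged from 28641 to 33390 CPM with BaP and from 37048 to 41662 CPM with vehicle. Of these 13, 0 rose and 1, APOB, fell, while DESeq2 and edgeR's exact test each called 3 lower. The median log2 fold change of the 13 was -0.18, and 4 were above 0. Of the 10 fibroblast markers 2 passed the filter on low counts, of the 8 endothelial markers 3 and of the 10 immune markers 4, and of the 6 cholangiocyte markers 3, of which SPP1 rose. DCN, KDR and CD3E had no count in any of the 4 libraries. The immune sum (919 and 961 CPM with BaP, 989 and 970 CPM with vehicle) was almost entirely lysozyme, LYZ (859.5 and 899 against 949 and 931 CPM).

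After 24 h of BaP, 458 genes (3.11% of the 14746 tested) were higher and 324 (2.20%) lower, 5.30% in all. The median log2 fold change was 0.83 among higher genes and -0.72 among lower genes, against 0.01 over all genes tested. Changes of over 2-fold numbered 150 up and 82 down. BaP and vehicle libraries did not overlap in 457 of the 458 higher genes and in all 324 lower genes, where 23.2% of all genes tested were separated upward and 24.0% downward. The higher genes together took 4.12% and 4.17% of all CPM with BaP and 2.30% and 2.36% with vehicle. The lower genes took 3.56% and 2.93% with BaP and 5.42% and 5.35% with vehicle.

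**Figure D1:**
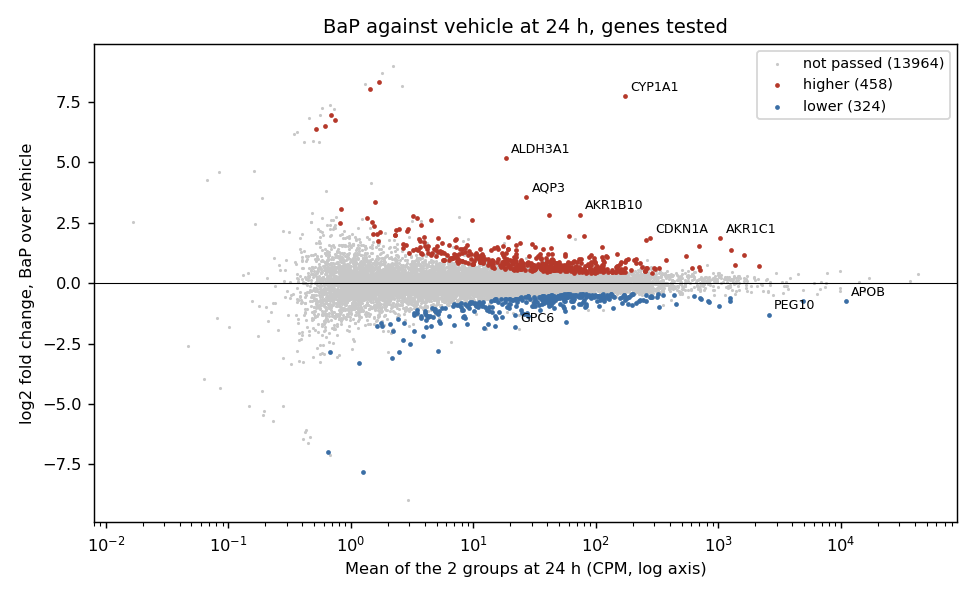
Mean level of each tested gene at 24 h (x, CPM, log axis) against its log2 fold change, BaP over vehicle (y). Red points are the 458 higher genes, blue points the 324 lower genes and grey points the genes that did not pass; points beyond ±5 at low levels have no count in 1 group and their fitted fold is no measure of size.

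Which genes could be called depended on how many reads lay behind them. Among genes with a mean under 1 CPM 0.687% were called, and the median count in BaP replicate 1 was 1. Between 5 and 20 CPM the share was 4.77%, with a median of 29 counts in BaP replicate 1 and 162 in BaP replicate 2. Above 100 CPM it was 8.50%, and the median SE of the log2 fold change was 0.13 against 0.75 under 1 CPM. A count of 0 allows up to 3 counts, or 1.16 CPM in BaP replicate 1 and 0.181 CPM in BaP replicate 2, so differences of genes under about that level were not detectable in the shallow library. Folds given below as "at least" put the vehicle group at 3 counts and take BaP counts as observed, without their counting error. They are therefore no strict lower bounds.

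The 2 BaP libraries stood further apart than the 2 vehicle libraries. Across 7299 well-covered genes the SD of the log2 difference between replicates was 0.32 with BaP and 0.18 with vehicle. The difference went with mRNA length in BaP replicate 2, the deeper library: over vehicle, its median log2 ratio was 0.52 for 298 genes with mRNAs up to 1 kb, 0.29 between 1 and 2 kb, 0.06 between 2 and 4 kb, -0.09 between 4 and 6 kb and -0.15 over 6 kb. In BaP replicate 1, the shallow library, the same medians ran from 0.00 to -0.05, and vehicle replicate 1 over vehicle replicate 2 ran from -0.03 to 0.00. Of the genes at 5 CPM or more with a count in all 4 libraries, 96.7% had a length. Whether this came from the cells or from the library was not tested.

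**Figure D2:**
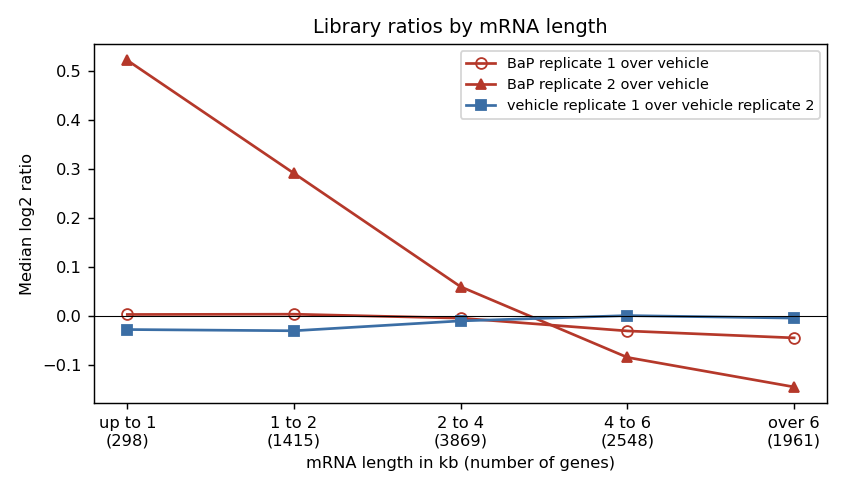
Median log2 ratio (y) of genes grouped by mRNA length (x, kb, with the number of genes in brackets) for each BaP library over the mean of both vehicle libraries (red) and for 1 vehicle library over the other (blue). The line of BaP replicate 2 falls from 0.52 to -0.15 while the other lines stay within 0.05 of 0.

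The calls were sensitive to single libraries. Without BaP replicate 1 there were 1230 higher (8.02%) and 726 lower genes (4.74%), 12.8% of 15329 tested, and without BaP replicate 2 there were 167 (1.09%) and 109 (0.711%), 1.80% of 15333. A correction for mRNA length and GC content in each library, chosen after seeing the data, gave 730 higher (5.40%) and 592 lower genes (4.38%), 9.77% of 13525. Without vehicle replicate 1 there were 95 and 74, and without vehicle replicate 2 there were 144 and 92. Where 1 library of a group is left out, the remaining one is assumed to vary as the other groups do. Of the 782 called genes, 66 higher and 44 lower ones passed whichever of the 4 libraries was left out, and these are called stable below; for the others that are named, the largest adjusted p on leaving out 1 library is given. No called gene changed sign on leaving out a library, apart from 2 higher genes counted without BaP replicate 2. TREM2, a higher gene, had no fold change in that fit, so these 2 may be missing values and not reversals. A missing fit was not counted as a lost call.

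Several gene lists differed between the BaP libraries and others did not. In NRF2 targets the median log2 ratio to vehicle was 0.57 in BaP replicate 1 and 0.73 in BaP replicate 2, and in cholesterol genes it was -0.61 and -0.55. For cytosolic ribosomal protein genes the medians were -0.16 and 0.42, with 1 of 33 members above vehicle in BaP replicate 1 and 33 of 33 in BaP replicate 2. The lists are described by counts and medians. With all libraries, the counts of each list are to be read against the 3.11% of genes tested that rose and the 2.20% that fell. Where edgeR called 0 members of a list below in 1 direction, DESeq2 also called 0, except for 1 lower gene each among AHR targets, conjugating enzymes and stress hormones and 1 higher mitochondrially encoded gene, and at an unadjusted p under 0.05 there were at most 5 such members. Over all genes tested the medians were -0.02 and 0.01.

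**Figure D3:**
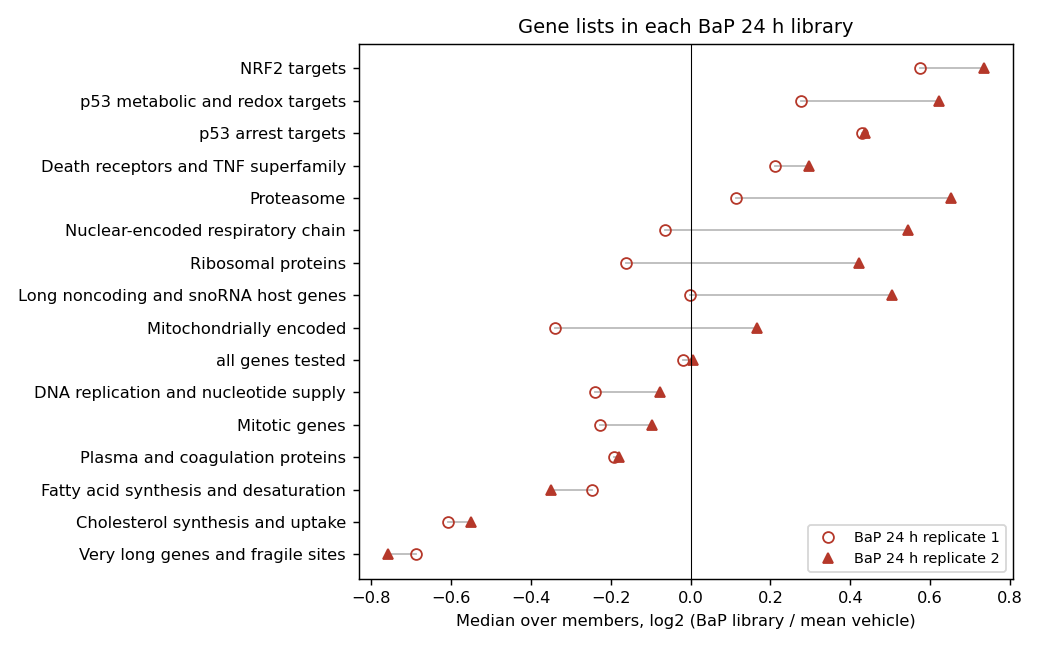
Median over the members of 16 sets of genes (y) of the log2 ratio of each BaP library to the mean of both vehicle libraries (x). Open circles are BaP replicate 1 and triangles BaP replicate 2; NRF2, cholesterol and very long genes lie on the same side of 0 in both libraries, while respiratory chain, ribosomal protein and mitochondrially encoded genes lie on opposite sides.

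CYP1A1 (ENSG00000140465), the P450 that oxidises BaP, had the largest rise of any gene at 5 CPM or more. Its level was 376 and 306 CPM with BaP and 1.61 and 1.5002 CPM with vehicle. Both BaP libraries lay far above both vehicle libraries, with 1002 and 4578 counts against 19 and 8, and the change was 7.74 ± 0.28 (adjusted p = 9.6e-10). The second P450 of the pathway, CYP1A2, stood at 1.88 and 1.34 CPM with BaP and 1.104 and 1.69 CPM with vehicle, the groups overlapped and it did not pass (0.15 ± 0.51, adjusted p = 0.92). CYP1B1 had 1 count in BaP replicate 2 and none in the other 3 libraries.

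The bases just before the start of CYP1A1 are shown because this is the gene with the strongest response. They are from RefSeq (GRCh38.p14, chr15:74725529-74725778, minus strand), with the TATA box in capitals.
CYP1A1: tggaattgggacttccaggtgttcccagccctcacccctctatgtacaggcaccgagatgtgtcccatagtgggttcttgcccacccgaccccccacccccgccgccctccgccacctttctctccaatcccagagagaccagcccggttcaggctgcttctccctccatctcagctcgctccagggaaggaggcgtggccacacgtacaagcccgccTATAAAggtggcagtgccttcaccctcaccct
The AHR response element core TNGCGTG, searched on both strands from 250 bases before to 50 after each start, was not in this window. The shorter run GCGTG is in the bases shown, and bases further upstream were not searched. TNGCGTG was in 8.47% of 496 promoters of higher genes, 3.49% of 344 promoters of lower genes and 7.10% of all 15036 promoters of tested genes. A gene can have several promoters in that table, so promoters of 1 gene overlap. Among AHR targets, the promoters of AHRR, NFE2L2 and NQO1 held the core.

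Of 18 AHR target genes listed, 16 were tested, 6 rose, against 3.11% of all genes tested, and 0 fell, with a median of 0.83. ALDH3A1 (ENSG00000108602), an aldehyde dehydrogenase, stood at 42.8 and 28.97 CPM with BaP and 0.934 and 0.938 CPM with vehicle. Both BaP libraries lay far above both vehicle libraries, and the change was 5.17 ± 0.29 (adjusted p = 1.8e-08). NQO1, which reduces quinones and also answers to NRF2, rose from 338 and 375 CPM with vehicle to 921 and 1160.0 CPM with BaP (1.55 ± 0.15), and the P450 CYP2S1 rose by less (57.02 and 58.7 against 33.1 and 31.5 CPM, 0.84 ± 0.13). LRRC25 rose at a low level (8.25 and 4.08 against 1.02 and 0.375 CPM, 2.69 ± 0.46, adjusted p = 0.0025), and all 5 of CYP1A1, ALDH3A1, NQO1, CYP2S1 and LRRC25 were stable. SERPINB2, a serpin, had 3 and 14 counts with BaP and none with vehicle, at least 5.17-fold higher in scaled counts against a floor of 3 counts over the vehicle group, and its call was not stable (adjusted p = 0.24 without vehicle replicate 1).

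The genes that sense and limit the pathway did not pass in the fit used for the calls. AHRR, the AHR repressor, stood at 6.38 and 3.61 CPM with BaP and 2.29 and 1.31 CPM with vehicle, with both BaP libraries above both vehicle libraries (1.16 ± 0.37, adjusted p = 0.085). After the correction for mRNA length and GC content AHRR did pass in edgeR (1.22, adjusted p = 0.034). At 12 h it had risen by 2.99 ± 0.32, and the difference between the times did not pass (adjusted p = 0.17). TIPARP, a second feedback gene, overlapped between groups (-0.26 ± 0.26, adjusted p = 0.64), as did AHR itself (-0.21 ± 0.16, adjusted p = 0.52). Of 10 genes of the AHR receptor complex 0 rose and 0 fell in edgeR (2 lower at an unadjusted p under 0.05, and 0 in DESeq2).

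Reductases and aldehyde dehydrogenases divided into a few large changes and many small ones. Of 23 tested, 6 rose and 2 fell, and the median was -0.03. AKR1B10 (ENSG00000198074), an aldo-keto reductase of retinal and lipid aldehydes, stood at 115 and 143 CPM with BaP and 15.5 and 21.9 CPM with vehicle. PTGR1 (ENSG00000106853), which reduces unsaturated aldehydes, stood at 74.7 and 69.7 CPM with BaP and 10.4 and 9.56 CPM with vehicle. In both genes the BaP libraries lay far above the vehicle libraries, the changes were 2.84 ± 0.16 and 2.83 ± 0.15, and both were stable. EPHX1, the microsomal epoxide hydrolase that acts on BaP epoxides, rose from 114 and 115 CPM with vehicle to 199.6 and 197 CPM with BaP (0.79 ± 0.12, stable). DHRS2, a mitochondrial short-chain reductase, fell from 1672 and 1436 CPM with vehicle to 890.3 and 960.1 CPM with BaP (-0.75 ± 0.15, adjusted p = 0.17 without vehicle replicate 1), and ALDH3B1 fell (-1.04, adjusted p = 0.35 without BaP replicate 2).

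AKR1C1, AKR1C2 and AKR1C3, which reduce steroids and BaP diols, are near-identical copies, so the split of reads between them by the authors' counting is uncertain. AKR1C1 stood at 1302 and 1931 CPM with BaP and 375 and 512 CPM with vehicle and AKR1C2 at 319 and 469 CPM with BaP and 93.99 and 138 CPM with vehicle. Both rose (1.87 ± 0.20 and 1.79 ± 0.21, both stable), and AKR1C3 rose by less (0.61 ± 0.15, adjusted p = 0.34 without vehicle replicate 1). AKR1C1 and MT2A had the largest gains in CPM among called genes.

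Of 25 conjugating enzymes 3 rose and 0 fell, with a median of 0.16, and without BaP replicate 1 7 rose. The microsomal glutathione transferase MGST1 rose from 80.9 and 75.9 CPM with vehicle to 147 and 184 CPM with BaP (1.09 ± 0.13, stable). UGT2B7, a glucuronosyltransferase, and SULT1A2, a sulfotransferase with near-identical copies, passed with smaller changes (0.83, adjusted p = 0.56 without BaP replicate 2, and 0.54, adjusted p = 0.48 without BaP replicate 2). Of 17 P450 genes outside the CYP1 family and their electron donors POR and CYB5A, CYP4F11, a fatty acid hydroxylase, rose (57.02 and 56.3 against 22.8 and 26.8 CPM, 1.21 ± 0.13, stable) and CYP2W1 fell (-0.69, adjusted p = 0.13 without BaP replicate 2). Of 15 transporters 3 rose and 2 fell. The export pump ABCC3 rose from 86.9 and 67.3 CPM with vehicle to 164 and 138 CPM with BaP (0.95 ± 0.14, stable), ABCC2 rose (0.64, adjusted p = 0.23 without vehicle replicate 1), and the breast cancer resistance pump ABCG2 rose (1.07, adjusted p = 0.39 without BaP replicate 2). The uptake transporter SLCO4C1 fell (-1.56, adjusted p = 0.26 without BaP replicate 2), as did ABCC6 (-0.58, adjusted p = 0.3 without vehicle replicate 1).

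NRF2 target genes were the list with the largest number of higher members. Some were also on lists above, so the counts of these lists are not independent. Shared genes that rose were NQO1 of the AHR targets, AKR1B10, AKR1C1, AKR1C2, AKR1C3 and EPHX1 of the reductases, and ABCC2 and ABCC3 of the transporters. Of 29 NRF2 targets tested, 18 rose and 0 fell against a background of 3.11% of genes, with a median of 0.63. The count was 22 without BaP replicate 1, 13 without BaP replicate 2 and 17 after a correction for mRNA length and GC content. TXNRD1, thioredoxin reductase, stood at 175 and 154 CPM with BaP and 73.02 and 78.01 CPM with vehicle (1.12 ± 0.13, stable), and its substrate TXN at 215 and 327 CPM with BaP and 140.1 and 141 CPM with vehicle (0.96 ± 0.16, adjusted p = 0.062 without vehicle replicate 1). In both genes the BaP libraries lay above the vehicle libraries, and the highest was BaP replicate 2 for TXN and BaP replicate 1 for TXNRD1.

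Both subunits of glutamate-cysteine ligase, the first step of glutathione synthesis, rose: GCLM from 13.1 and 13.1 CPM with vehicle to 22.9 and 24.4 CPM with BaP (0.87 ± 0.17, adjusted p = 0.11 without vehicle replicate 1) and GCLC from 38.7 and 39.6 CPM with vehicle to 62.7 and 56.5 CPM with BaP (0.59 ± 0.14, adjusted p = 0.21 without vehicle replicate 1). Glutathione reductase, GSR, rose (0.56, adjusted p = 0.24 without vehicle replicate 1), as did the glutathione peroxidase GPX2 (714 and 773 against 481 and 482 CPM, 0.63, adjusted p = 0.18 without vehicle replicate 1). The autophagy receptor SQSTM1 rose from 219.7 and 284 CPM with vehicle to 444 and 542 CPM with BaP (0.98 ± 0.15, adjusted p = 0.06 without vehicle replicate 1), and the pentose phosphate enzyme TALDO1 rose (0.83 ± 0.14, adjusted p = 0.053 without vehicle replicate 1). The growth inhibitor OSGIN1 rose (78.8 and 84.4 against 43.8 and 49.9 CPM, 0.82 ± 0.12, adjusted p = 0.054 without vehicle replicate 1). PIR, an iron-binding nuclear protein, rose (0.63, adjusted p = 0.4 without BaP replicate 2). The ferritin chains FTL and FTH1 did not pass (0.52 ± 0.18, adjusted p = 0.11, and 0.44 ± 0.16, adjusted p = 0.14). NFE2L2, which encodes NRF2, had lower values with BaP in both libraries but did not pass (-0.36 ± 0.12, adjusted p = 0.11), and of 9 NRF2 regulators tested 0 rose and 0 fell in edgeR (1 lower at an unadjusted p under 0.05, and 0 in DESeq2).

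A strict antioxidant response element, TGANTCAGC on either strand, was in 3.43% of promoters of higher genes (16 genes), 0.291% of promoters of lower genes (1 gene) and 1.12% of all. The sites of 4 higher genes are shown, with 12 bases on each side and the element in capitals, because the element was in a larger share of promoters of higher than of lower genes. Of 19 NRF2 targets with a promoter searched, 2 held the element, OSGIN1 and PIR. MT2A and MDM2 are not on the NRF2 list. This motif overlaps the AP-1 site TGANTCA.
OSGIN1 (chr16:83953129-83953161): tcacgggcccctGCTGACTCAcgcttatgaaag
PIR (chrX:15493287-15493319): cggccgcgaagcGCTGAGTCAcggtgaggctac
MT2A (chr16:56608468-56608500): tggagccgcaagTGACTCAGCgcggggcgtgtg
MDM2 (chr12:68808887-68808919): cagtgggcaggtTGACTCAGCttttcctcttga
All 4 are from RefSeq (GRCh38.p14), and the PIR gene is on the minus strand. The shorter form TGACNNNGC was in 18.8% of promoters of higher genes, 16.3% of those of lower genes and 14.7% of all. A match is a run of letters and no binding was measured.

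**Figure D4:**
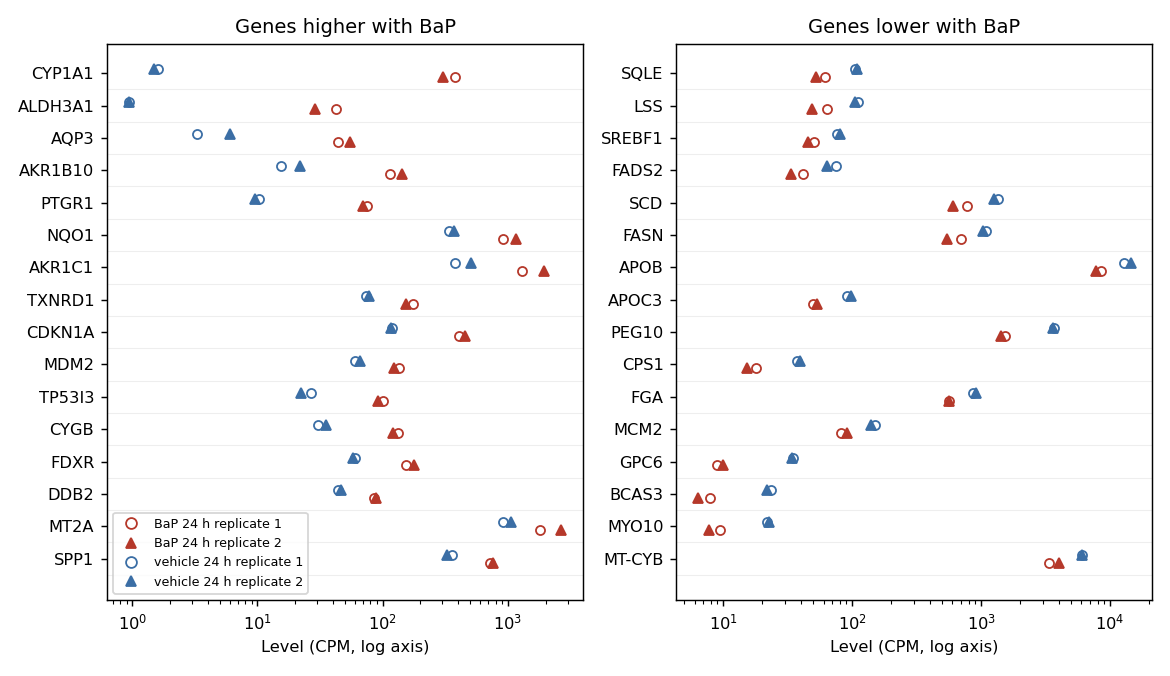
Level of 16 higher genes (left) and 16 lower genes (right) in each of the 4 libraries (x, CPM, log axis). Red symbols are BaP and blue symbols vehicle, with open circles for replicate 1 and triangles for replicate 2. The BaP and vehicle libraries do not overlap in any of the 32 genes because the choice of genes required it.

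Among p53 targets, genes of arrest and redox metabolism rose. CDKN1A (ENSG00000124762), the cyclin-dependent kinase inhibitor p21, stood at 409.7 and 451 CPM with BaP and 119.5 and 116 CPM with vehicle. The BaP libraries lay close together and well above the vehicle libraries, and the change was 1.87 ± 0.15 (adjusted p = 2.3e-06, stable). MDM2 (ENSG00000135679), the ubiquitin ligase that degrades p53, rose from 60.3 and 65.6 CPM with vehicle to 134 and 122 CPM with BaP (1.02 ± 0.14, stable). Of 10 p53 feedback genes 2 rose and 0 fell, MDM2 and the nuclease AEN (0.63, adjusted p = 0.13 without vehicle replicate 1). PPM1D, the phosphatase that turns p53 off, had higher values with BaP but did not pass (0.52 ± 0.20, adjusted p = 0.16).

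Of 12 p53 arrest targets 6 rose, against 3.11% of all genes tested, and 0 fell, with a median of 0.36. SFN, the 14-3-3 sigma protein, rose from 36.2 and 31.9 CPM with vehicle to 74.7 and 81.1 CPM with BaP (1.19 ± 0.15, stable), and the antiproliferative gene BTG2 rose from 17.2 and 15.002 CPM with vehicle to 36.8 and 28.3 CPM with BaP (0.94 ± 0.17, stable). GADD45A (0.68, adjusted p = 0.21 without vehicle replicate 1), PLK2 (0.85, adjusted p = 0.34 without vehicle replicate 1) and PLK3 (0.84, adjusted p = 0.34 without vehicle replicate 1) also rose. Of 18 p53 metabolic and redox targets 7 rose, against the same background, and 0 fell, with a median of 0.47. TP53I3, a quinone oxidoreductase, stood at 101 and 92.4 CPM with BaP and 26.8 and 22.3 CPM with vehicle (1.95 ± 0.15), the globin CYGB at 132 and 121 CPM with BaP and 30.4 and 35.4 CPM with vehicle (1.95 ± 0.15), and ferredoxin reductase, FDXR, at 155 and 178 CPM with BaP and 60.3 and 57.9 CPM with vehicle (1.499 ± 0.13). In these 3 genes the BaP libraries lay well above the vehicle libraries without overlap, and all were stable. TIGAR, which lowers glycolytic flux, rose from 8.15 and 6.38 CPM with vehicle to 23.6 and 17.2 CPM with BaP (1.37 ± 0.21, stable). The sestrins SESN1 (0.63, adjusted p = 0.24 without vehicle replicate 2) and SESN2 (0.84, adjusted p = 0.14 without vehicle replicate 1) and the glutaminase GLS2 (0.91, adjusted p = 0.11 without vehicle replicate 2) also rose.

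Some death genes also rose. Of 16 death receptors and TNF superfamily genes 5 rose, against 3.11% of all genes tested, and 0 fell, with a median of 0.31. FAS stood at 12.8 and 14.05 CPM with BaP and 6.28 and 5.25 CPM with vehicle (1.21 ± 0.20, adjusted p = 0.066 without BaP replicate 2), and the ectodysplasin receptor EDA2R at 28.5 and 27.8 CPM with BaP and 15.6 and 13.9 CPM with vehicle (0.91 ± 0.18, adjusted p = 0.075 without vehicle replicate 2). The decoy receptor TNFRSF10D (0.70, adjusted p = 0.14 without vehicle replicate 1) and TNFRSF12A (0.61, adjusted p = 0.23 without vehicle replicate 1) rose as well. Of 23 genes of the BCL2 family and death machinery 2 rose and 0 fell: BID (0.60, adjusted p = 0.31 without BaP replicate 2) and PIDD1 (0.66, adjusted p = 0.11 without vehicle replicate 2). The pro-apoptotic p53 targets BAX (0.43 ± 0.14, adjusted p = 0.089) and BBC3 (0.23 ± 0.23, adjusted p = 0.63) did not pass. PMAIP1 did not pass and had under 2 CPM in each library (1.501 and 1.003 against 0.509 and 0.375 CPM).

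Of 26 genes of nucleotide excision repair, the pathway that removes BaP adducts, 2 rose, against 3.11% of all genes tested, and 0 fell, with a median of 0.03. DDB2, the damage-recognition subunit and a p53 target, stood at 85.9 and 87.8 CPM with BaP and 44.4 and 46.7 CPM with vehicle, with both BaP libraries above both vehicle libraries (0.94 ± 0.12, stable). ERCC1 rose (0.60, adjusted p = 0.25 without vehicle replicate 1), and XPC did not pass (0.31 ± 0.17, adjusted p = 0.32). Of 17 translesion synthesis genes POLH, the polymerase that copies past bulky lesions, rose (0.71, adjusted p = 0.13 without vehicle replicate 1). Of 43 homologous recombination, Fanconi and checkpoint genes RAD51C rose (0.91, adjusted p = 0.19 without BaP replicate 2) and H2AX fell (-0.56, adjusted p = 0.17 without vehicle replicate 2).

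The decamer of the p53 response element, searched by its consensus, was in 7.66% of promoters of higher genes, 5.81% of those of lower genes and 5.73% of all. Among p53 metabolic and redox targets the promoters of FDXR, GPX1 and SESN1 held it.

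Of 47 DNA replication and nucleotide supply genes 0 rose and 3 fell, against 2.20% of all genes tested, with a median of -0.12, and 11 of the 47 had a log2 fold change above 0. The 3 were subunits of the replicative helicase: MCM2 stood at 81.8 and 91.2 CPM with BaP and 151 and 139 CPM with vehicle (-0.73 ± 0.12, adjusted p = 0.055 without vehicle replicate 1), MCM4 fell by less (-0.58, adjusted p = 0.18 without vehicle replicate 1) and so did MCM5 (-0.52, adjusted p = 0.32 without vehicle replicate 1). Of 36 mitotic genes CENPF (-0.53, adjusted p = 0.18 without BaP replicate 2) and INCENP (-0.52, adjusted p = 0.51 without BaP replicate 2) fell, 6 of the 36 had a log2 fold change above 0, and 6 fell without BaP replicate 1. SKP2, which marks cyclin-dependent kinase inhibitors for degradation, fell from 41.9 and 38.6 CPM with vehicle to 20.3 and 21.7 CPM with BaP (-0.93 ± 0.18, adjusted p = 0.1 without vehicle replicate 1), and cyclin D3, CCND3, rose (0.56, adjusted p = 0.39 without BaP replicate 2). Of 16 histone genes of the clusters H4C3 fell (-1.28, adjusted p = 0.18 without BaP replicate 2).

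Many cholesterol synthesis genes fell. Of 28 genes of cholesterol synthesis and uptake tested, 0 rose and 16 fell against a background of 2.20% of genes, with a median of -0.58 and 4 members above 0. The counts of lower members were 18 without BaP replicate 1, 10 without BaP replicate 2 and 19 after the correction for mRNA length and GC content. HMGCS1, a synthase of the early pathway, fell from 47.8 and 46.5 CPM with vehicle to 25.9 and 20.3 CPM with BaP (-1.095 ± 0.19, adjusted p = 0.12 without BaP replicate 2). After it, MVK (-0.62, adjusted p = 0.23 without vehicle replicate 1), MVD (-0.86 ± 0.14, stable) and IDI1 (-0.56, adjusted p = 0.21 without vehicle replicate 1) fell, and so did squalene synthase, FDFT1 (-0.49, adjusted p = 0.21 without vehicle replicate 1). SQLE, the squalene epoxidase, stood at 61.2 and 52.5 CPM with BaP and 106 and 109.9 CPM with vehicle and LSS, the lanosterol synthase, at 63.8 and 49.2 CPM with BaP and 110.5 and 105 CPM with vehicle. Both fell with no overlap between groups (-0.95 ± 0.13 and -0.97 ± 0.13, both stable). Of the late steps, MSMO1 (-0.88, adjusted p = 0.073 without vehicle replicate 1) and DHCR7 (-0.83 ± 0.13, stable) fell too.

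SREBF2, the gene of the factor that drives the pathway, fell from 209.6 and 215 CPM with vehicle to 149.7 and 116 CPM with BaP (-0.70 ± 0.13), and its call was narrowly lost without 3 of the libraries, with adjusted p = 0.059 without vehicle replicate 1 as the largest.

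Promoter sequences of this group are shown because SREBP2 and its partner NF-Y bind sterol regulatory elements and CCAAT boxes. The classic sterol regulatory element was in 1 promoter of a lower gene, SREBF2, in 0 promoters of higher genes and in 0.106% of all. CCAAT, on either strand, was in the promoters of 17 of 21 cholesterol genes with a promoter searched, against 134 of 342 higher genes, 99 of 227 lower genes and 4460 of all 10378. Counted by promoter it was in 19 of 27, against 33.5%, 34.0% and 34.7%. Motifs are in capitals, from RefSeq (GRCh38.p14).
SREBF2 (chr22:41832959-41832992): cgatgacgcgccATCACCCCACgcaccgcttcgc
HMGCS1 (chr5:43313496-43313524): ctaccggccgcgATTGGctgtgggagcca
DHCR7 (chr11:71448471-71448499): caggctcctcgaCCAATcacggggcgcgg
LSS (chr21:46228908-46228936): cgcggcgctctgATTGGttgcgtgggcgt
MVD (chr16:88663160-88663188): ggctcgcacgggCCAATcctgtggtagcg
ATTGG is CCAAT read from the other strand. HMGCS1, DHCR7, LSS and MVD are on the minus strand of the build.

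Fatty acid genes fell in smaller number. Of 24 genes of fatty acid synthesis and desaturation 1 rose and 5 fell, with a median of -0.33, and without BaP replicate 1 there were 10 lower. SCD, the stearoyl desaturase, stood at 772 and 607 CPM with BaP and 1361 and 1267 CPM with vehicle (-0.93 ± 0.16, stable). FADS2, a second desaturase, fell from 74.8 and 63.9 CPM with vehicle to 41.6 and 33.6 CPM with BaP (-0.94 ± 0.14, stable), and SREBF1 fell from 76.1 and 80.1 CPM with vehicle to 51.02 and 45.2 CPM with BaP (-0.72 ± 0.12, stable). FASN, the fatty acid synthase, fell from 1086 and 1026 CPM with vehicle to 703 and 539.7 CPM with BaP (-0.77 ± 0.16, adjusted p = 0.12 without vehicle replicate 1), and PNPLA3 fell (-1.11, adjusted p = 0.13 without vehicle replicate 1). ACSL5, an acyl-CoA synthetase, was the higher member (79.9 and 97.3 against 57.7 and 66.9 CPM, 0.54, adjusted p = 0.32 without vehicle replicate 1). Of 25 fatty acid oxidation genes CPT1A (0.63, adjusted p = 0.22 without vehicle replicate 2) and ACADVL (0.57, adjusted p = 0.13 without vehicle replicate 1) rose and 0 fell.

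Of 22 apolipoprotein and lipid transfer genes 1 rose and 3 fell. APOB (ENSG00000084674), the core protein of very low density lipoprotein, stood at 8526 and 7759.9 CPM with BaP and 12799 and 14498 CPM with vehicle, the largest loss in CPM among called genes (-0.75 ± 0.18, adjusted p = 0.25 without vehicle replicate 2). MTTP, which loads lipid onto it, fell (30.01 and 33.8 against 47.97 and 60.01 CPM, -0.72, adjusted p = 0.22 without vehicle replicate 2), and APOC3 fell from 91.7 and 98.6 CPM with vehicle to 49.5 and 52.98 CPM with BaP (-0.88 ± 0.12, stable). PLTP, the phospholipid transfer protein, rose from 25.5 and 27.2 CPM with vehicle to 65.3 and 57.998 CPM with BaP (1.22 ± 0.14, stable).

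Lists of secreted plasma proteins and liver metabolism held calls in both directions. Of 51 plasma and coagulation protein genes 2 rose and 5 fell, with a median of -0.15. Over all genes tested 3.11% rose and 2.20% fell, so the rises on this list were close to the background. Fibrinogen alpha, FGA, fell from 866 and 913 CPM with vehicle to 565 and 561 CPM with BaP (-0.66 ± 0.13, adjusted p = 0.1 without vehicle replicate 2) and angiotensinogen, AGT, fell from 1389 and 1574 CPM with vehicle to 1003 and 962 CPM with BaP (-0.59 ± 0.15, adjusted p = 0.27 without vehicle replicate 2). The serum amyloid gene SAA4 rose (24.4 and 40.1 against 9.42 and 14.6 CPM, 1.57 ± 0.25, adjusted p = 0.064 without vehicle replicate 1), as did complement C1S (0.90, adjusted p = 0.15 without vehicle replicate 1). Albumin, ALB, had lower values with BaP but did not pass (1969 and 2451 against 2619 and 3098 CPM, -0.37 ± 0.16, adjusted p = 0.22). Of 22 genes of gluconeogenesis, glycogen and the urea cycle 3 rose and 4 fell. The glucokinase regulator GCKR rose from 9.34 and 8.06 CPM with vehicle to 26.6 and 25.6 CPM with BaP (1.55 ± 0.18, stable). CPS1, the first enzyme of the urea cycle, fell from 37.1 and 39.4 CPM with vehicle to 18.01 and 15.3 CPM with BaP (-1.24 ± 0.18, stable). Of 28 hepatocyte transcription factors RXRA fell (-0.46, adjusted p = 0.26 without vehicle replicate 1) and 0 rose, and HNF4A did not pass (-0.10 ± 0.13).

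A number of very long genes fell. Of 45 genes listed for their length or a common fragile site, 33 were tested, and 0 rose and 15 fell, against 2.20% of all genes tested, with a median of -0.61 and 5 members above 0. The list had been named in part for genes known to fall at 12 h, so neither its direction nor its change since 12 h is independent evidence. The counts of lower members were 17 without BaP replicate 1 and 10 without BaP replicate 2. After the correction for mRNA length and GC content 15 were lower and 2 higher. GPC6 (ENSG00000183098), a glypican gene, stood at 9.004 and 9.9005 CPM with BaP and 34.6 and 33.9 CPM with vehicle (-1.83 ± 0.16), and BCAS3, a cytoskeletal adaptor, at 7.88 and 6.36 CPM with BaP and 23.3 and 21.9 CPM with vehicle (-1.75 ± 0.19). TLN2, a talin, stood at 16.5 and 14.2 CPM with BaP and 36.3 and 32.8 CPM with vehicle (-1.22 ± 0.16), and the unconventional myosin MYO10 at 9.38 and 7.76 CPM with BaP and 21.8 and 22.5 CPM with vehicle (-1.43 ± 0.18). In these 4 genes both BaP libraries lay far below both vehicle libraries, and all were stable. TRAPPC9, a vesicle-tethering gene, fell from 18.6 and 18.9 CPM with vehicle to 6.003 and 5.02 CPM with BaP (-1.83 ± 0.22, stable), and EXOC4, of the exocyst, fell from 40.2 and 39.2 CPM with vehicle to 18.8 and 21.9 CPM with BaP (-0.93 ± 0.15, stable). The fragile-site gene FHIT fell at a low level, from 4.58 and 4.31 CPM with vehicle to 0.375 and 0.669 CPM with BaP (-2.84 ± 0.42, stable), and WWOX fell likewise (0.375 and 1.67 against 5.86 and 5.25 CPM, -1.98 ± 0.37, adjusted p = 0.073 without vehicle replicate 1).

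The same ordering held over all genes with a known span. Among 6888 genes spanning up to 30 kb, 278 were higher and 116 lower, and among 4336 genes of 30 to 100 kb, 120 and 80. Among 1915 genes of 100 to 300 kb, 36 were higher and 70 lower, and among 386 genes over 300 kb, 5 and 45. The median log2 fold change went from 0.08 in the shortest class to -0.24 in the longest. These classes were neither split by library nor corrected for mRNA length. How far the trend with mRNA length in BaP replicate 2 adds to this ordering was not tested.

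The response at 24 h was then compared with that at 12 h, where 503 genes were higher and 713 lower (3.41% and 4.84%) against other vehicle libraries. Of the 458 genes higher at 24 h, 183 had been called higher at 12 h, 1 lower and 274 not called. Of the 324 lower genes, 175 had been called lower and 149 not called. The difference itself passed the test in 80 genes (0.543%), 68 with a more positive change at 24 h (0.461%) and 12 with a more negative one (0.0814%). Among the 458 higher genes 11 differed, 7 with a larger rise at 24 h and 4 with a smaller one, and among the 324 lower genes 14 differed, 1 with a larger fall and 13 with a smaller one. An effect called at 1 time and not the other is therefore not shown to differ for most of these genes.

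Of the 80 genes that differed, 46 spanned over 300 kb. All 46 had a less negative or more positive change at 24 h, and the median of the 386 genes over 300 kb was -0.65 at 12 h. Of the 33 listed very long genes, chosen in part for a fall at 12 h, 27 fell then with a median of -2.05, and 15 differed in that direction. SNX29, a sorting nexin, stood at 6.003 and 6.29 CPM with BaP and 19.1 and 21.2 CPM with vehicle at 24 h (-1.68 ± 0.23), where the 12 h change was -4.89 ± 0.29 (difference 3.21 ± 0.41, adjusted p = 0.00091). PRKCA, a protein kinase C, fell (38.3 and 45.6 against 68.3 and 67.1 CPM, -0.66 ± 0.13, adjusted p = 0.086 without vehicle replicate 1) against -2.65 ± 0.13 at 12 h (difference 1.99 ± 0.18, adjusted p = 3.5e-05). SHANK2, a synaptic scaffold, fell from 61.6 and 72.6 CPM with vehicle to 45.02 and 42.8 CPM with BaP (-0.61 ± 0.13, adjusted p = 0.18 without vehicle replicate 2; difference 2.24 ± 0.20, adjusted p = 3.2e-05). BTBD9 still fell (-1.17 ± 0.29, adjusted p = 0.37 without BaP replicate 2; difference 2.32 ± 0.46, adjusted p = 0.026). TLN2 (1.1004 ± 0.22, adjusted p = 0.028), EXOC4 (1.12 ± 0.22, adjusted p = 0.022), TTC28 (1.91 ± 0.21, adjusted p = 0.00024) and PTPRG (1.78 ± 0.23, adjusted p = 0.0012) also differed.

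**Figure D5:**
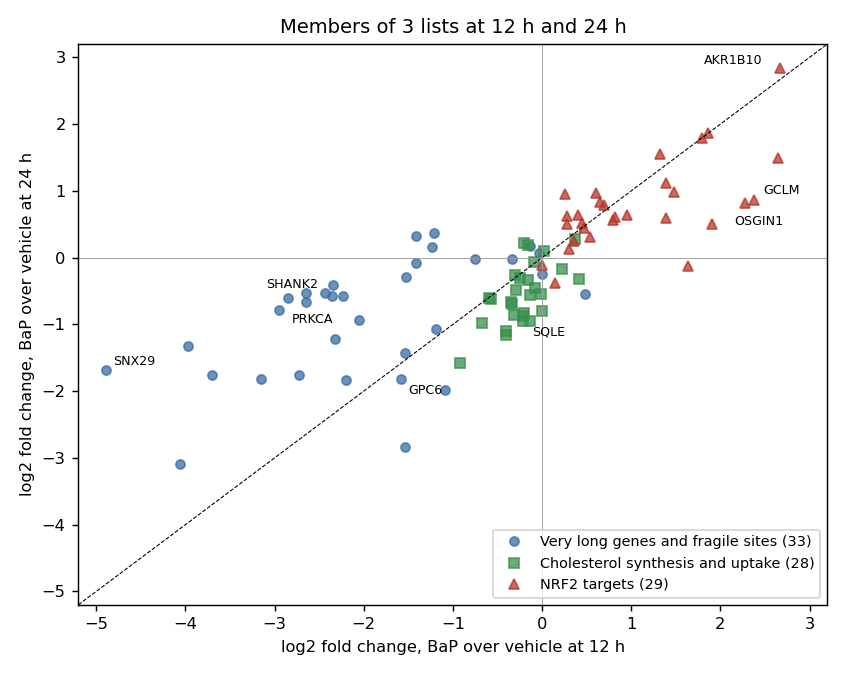
Log2 fold change of BaP over vehicle at 12 h (x) and 24 h (y) for the tested members of 3 lists, each time point against its own vehicle libraries, with the dashed line marking equal changes. Very long genes (blue) lie mostly above the line on the left, with a median of -2.05 at 12 h and -0.61 at 24 h, cholesterol genes (green) have medians of -0.21 and -0.58, and NRF2 targets (red) 0.80 and 0.63.

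Among NRF2 targets 3 had a smaller response at 24 h. GCLM had risen by 2.38 ± 0.15 at 12 h (difference -1.51 ± 0.23, adjusted p = 0.0031) and OSGIN1 by 2.27 ± 0.12 (difference -1.46 ± 0.17, adjusted p = 0.00028). HMOX1, heme oxygenase, had risen at 12 h (1.63 ± 0.17) and at 24 h stood at 37.5 and 23.8 CPM with BaP and 32.6 and 28.5 CPM with vehicle, with overlapping groups (-0.12 ± 0.19, adjusted p = 0.79; difference -1.75 ± 0.25, adjusted p = 0.0039). ABHD4, a lipase, rose at 24 h (152 and 133 against 88.6 and 81.01 CPM, 0.74 ± 0.12, adjusted p = 0.056 without vehicle replicate 2) by less than at 12 h (difference -1.12 ± 0.17, adjusted p = 0.0033). In the other direction the rise of PLTP was larger at 24 h (0.29 ± 0.13 at 12 h, difference 0.92 ± 0.19, adjusted p = 0.035), and ACSL5 changed from -0.42 ± 0.13 to 0.54 ± 0.13 (difference 0.96 ± 0.18, adjusted p = 0.02). None of the 28 cholesterol genes passed the test of the difference, although 5 were lower at 12 h and 16 at 24 h. The rise of CYP1A1 was 7.66 ± 0.24 at 12 h, and its difference did not pass (0.08 ± 0.39, adjusted p = 0.97).

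The counts for proteasome, respiratory chain and ribosomal protein genes moved with BaP replicate 2. Of 36 proteasome genes 7 rose and 0 fell, with a median of 0.45. The count was 29 without BaP replicate 1 and 1 without BaP replicate 2, and 14 after the correction for mRNA length and GC content. The median log2 ratio to vehicle was 0.11 in BaP replicate 1, with 29 of 36 members above vehicle, and 0.65 in BaP replicate 2, with 35 of 36. PSMC4, an ATPase of the cap, stood at 168 and 199 CPM with BaP and 114 and 109 CPM with vehicle (0.73 ± 0.12, adjusted p = 0.053 without vehicle replicate 2), and PSMA7, a core subunit, at 288 and 443 CPM with BaP and 237 and 248 CPM with vehicle (0.60 ± 0.16, adjusted p = 0.45 without BaP replicate 2). For both the BaP libraries were above the vehicle libraries and BaP replicate 2 was the highest. Of 52 nuclear-encoded respiratory chain genes 1, COX7A2, rose (99.4 and 149.7 against 76.1 and 81.6 CPM, 0.70, adjusted p = 0.3 without BaP replicate 2). Without BaP replicate 1 there were 37 higher, and without BaP replicate 2 there were 0 (median -0.07) in edgeR. Of 33 ribosomal protein genes RPS27L, a p53 target, rose (101 and 129 against 73.3 and 63.4 CPM, 0.77, adjusted p = 0.13 without vehicle replicate 2), with 13 higher without BaP replicate 1 and 0 without BaP replicate 2. Median mRNA lengths were 2.63 kb (proteasome), 1.68 kb (respiratory chain) and 1.87 kb (ribosomal), and after the correction for mRNA length and GC content 2 respiratory chain and 1 ribosomal protein genes were higher.

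Like respiratory chain and ribosomal protein genes, mitochondrially encoded genes lay on opposite sides of vehicle in the 2 BaP libraries. Their medians were -0.34 in BaP replicate 1 and 0.17 in BaP replicate 2. Of 15 tested, MT-CYB, cytochrome b, fell from 6088 and 6090.2 CPM with vehicle to 3369 and 3989 CPM with BaP (-0.73 ± 0.16, adjusted p = 0.16 without vehicle replicate 1). Of 17 long noncoding and snoRNA host genes NEAT1, the scaffold of paraspeckles, rose. It stood at 232 and 186 CPM with BaP and 89.7 and 87.4 CPM with vehicle, with both BaP libraries far above both vehicle libraries (1.23 ± 0.18, stable), and 7 of the 17 rose without BaP replicate 1.

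Channels, adhesion and signalling genes were among the largest single changes. AQP3 (ENSG00000165272), a water and glycerol channel, stood at 44.3 and 54.7 CPM with BaP and 3.31 and 6.001 CPM with vehicle (3.56 ± 0.22, adjusted p = 8.2e-08, stable), the third largest rise of any gene at 5 CPM or more. NECTIN4, an adhesion protein, rose from 3.23 and 2.25 CPM with vehicle to 13.9 and 19.5 CPM with BaP (2.61 ± 0.26, stable). The WNT ligand WNT11 rose at a low level, from 0.934 and 0.563 CPM with vehicle to 5.63 and 5.62 CPM with BaP (2.78 ± 0.36, stable), while 4 of 24 WNT and beta-catenin genes fell. NOTUM, a WNT-inactivating lipase and beta-catenin target, fell from 1049 and 995 CPM with vehicle to 669 and 558 CPM with BaP (-0.74 ± 0.15, adjusted p = 0.11 without vehicle replicate 1), and SP5, a target factor, fell from 247 and 316 CPM with vehicle to 178 and 159.8 CPM with BaP (-0.74 ± 0.14, adjusted p = 0.11 without vehicle replicate 2). Of 12 AP-1 genes FOSL1 rose from 22.6 and 23.8 CPM with vehicle to 63.4 and 62.2 CPM with BaP (1.44 ± 0.15, stable), and ATF3 did not pass (0.40 ± 0.26, adjusted p = 0.42). CDH1, E-cadherin, fell (10.1 and 7.56 against 21.7 and 12.001 CPM, -1.09, adjusted p = 0.5 without BaP replicate 2). Of 22 SRF and YAP targets smooth-muscle actin, ACTA2, rose from 50.4 and 46.3 CPM with vehicle to 95.7 and 98.6 CPM with BaP (1.003 ± 0.12, stable).

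Of 16 secreted stress hormone and IGF axis genes GDF15, IGFBP1, IGFBP3 (0.92, adjusted p = 0.53 without BaP replicate 2) and IGFBP4 (0.63, adjusted p = 0.2 without vehicle replicate 2) rose and 0 fell, with a median of 0.05. GDF15 (ENSG00000130513), a stress hormone and p53 target, stood at 1426 and 2221 CPM with BaP and 521 and 909.7 CPM with vehicle. The BaP libraries were above the vehicle libraries, but the 2 libraries of each group were far apart, and the call was not stable (1.35 ± 0.27, adjusted p = 0.29 without BaP replicate 2). IGFBP1, an insulin-like growth factor binding protein of liver, rose from 1408 and 1852 CPM with vehicle to 2618 and 2696 CPM with BaP (0.71 ± 0.16, adjusted p = 0.31 without vehicle replicate 1). Outside that list osteopontin, SPP1, also a cholangiocyte marker, rose from 358 and 327 CPM with vehicle to 726 and 768 CPM with BaP (1.12 ± 0.13, stable). TGFB1 rose by less (0.48, adjusted p = 0.39 without vehicle replicate 1). Of 10 metallothionein and zinc genes tested MT2A and MT1A rose. MT2A stood at 1806 and 2683 CPM with BaP and 912 and 1066 CPM with vehicle (1.18 ± 0.20, adjusted p = 0.081 without vehicle replicate 1), and metallothioneins have near-identical copies, so their split is uncertain.

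Other stress lists showed few calls. Of 33 ATF4 and unfolded protein response genes 0 rose, and the chaperones HSPA5 (554 and 479.8 against 762 and 744 CPM, -0.54, adjusted p = 0.25 without vehicle replicate 1) and PDIA4 (-0.48, adjusted p = 0.29 without vehicle replicate 2) fell. Of 22 heat shock genes 0 rose and 0 fell in edgeR (5 higher and 1 lower at an unadjusted p under 0.05, and 0 in DESeq2). Of 31 interferon-stimulated genes 3 rose, OAS1 (0.91, adjusted p = 0.36 without vehicle replicate 1), IFI6 (0.86, adjusted p = 0.27 without vehicle replicate 1) and ISG20 (0.92, adjusted p = 0.74 without BaP replicate 2), and 0 did without BaP replicate 2. Among markers of other cell types CD68 (51.8 and 56.1 against 37.4 and 36.2 CPM, 0.56, adjusted p = 0.19 without BaP replicate 2) and CD14 (7.13 and 5.55 against 1.95 and 2.25 CPM, 1.54, adjusted p = 0.17 without vehicle replicate 1) rose, while the leukocyte gene PTPRC had 1 count in each vehicle library and none with BaP.

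Several of the largest changes lay outside these lists. PEG10 (ENSG00000242265), an imprinted retrotransposon-derived gene, stood at 1543 and 1418 CPM with BaP and 3683 and 3616 CPM with vehicle (-1.302 ± 0.15, stable). B4GALNT1, a ganglioside synthase, rose from 11.8 and 10.7 CPM with vehicle to 39.4 and 34.4 CPM with BaP (1.67 ± 0.16), the phosphodiesterase PDE4C rose from 7.47 and 8.44 CPM with vehicle to 36.02 and 25.2 CPM with BaP (1.895 ± 0.21) and the RAS-related gene RASD1 rose from 11.8 and 19.5 CPM with vehicle to 38.6 and 51.2 CPM with BaP (1.63 ± 0.21), all stable. Both libraries of each group lay close together for B4GALNT1 and further apart for the other 2. RGS10 (1.58 ± 0.25) and DUSP13 (1.84 ± 0.28) were stable, and AMPD3 (1.85 ± 0.33, adjusted p = 0.081 without vehicle replicate 1), NOTCH1 (1.58 ± 0.31, adjusted p = 0.12 without vehicle replicate 1) and CYSRT1 (1.796 ± 0.28, adjusted p = 0.055 without vehicle replicate 1) were not. HMGA1, a chromatin protein, rose from 997 and 1028 CPM with vehicle to 1684 and 1728 CPM with BaP (0.75 ± 0.15, adjusted p = 0.14 without vehicle replicate 1). SPTLC3, of sphingolipid synthesis, fell from 38.2 and 41.6 CPM with vehicle to 15.4 and 15.3 CPM with BaP (-1.37 ± 0.16), and PLPPR1 (-1.38 ± 0.19), PTPRN2 (-1.35 ± 0.20), SCN1A (-1.42 ± 0.22), LHPP (-1.6999 ± 0.26) and SYNE2 (-1.31 ± 0.19) fell, all stable. SLC39A11 (-1.42 ± 0.26, adjusted p = 0.17 without BaP replicate 2), GNG7 (-1.36 ± 0.26, adjusted p = 0.16 without vehicle replicate 1), AATK (-1.35 ± 0.22, adjusted p = 0.058 without BaP replicate 2) and ARHGAP44 (-1.29 ± 0.29, adjusted p = 0.42 without BaP replicate 2) fell without being stable. PHLDA3, a p53 target that inhibits AKT, was named after its values were seen and rose from 37.4 and 33.4 CPM with vehicle to 70.2 and 84.02 CPM with BaP (1.14 ± 0.15, stable). AXL, a receptor tyrosine kinase, was chosen in the same way and rose from 24.3 and 22.1 CPM with vehicle to 49.5 and 47.2 CPM with BaP (1.04 ± 0.15, stable).

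At under 5 CPM the calls rest on few reads. TREM2, a lipid receptor, had 3 and 24 counts with BaP and none with vehicle, at least 8.20-fold higher against 3 counts over the vehicle group (adjusted p = 0.02, adjusted p = 0.25 without vehicle replicate 1). FMOD, a matrix proteoglycan, had 4 and 14 counts against none, at least 5.47-fold higher (adjusted p = 0.021, adjusted p = 0.24 without vehicle replicate 1). IP6K3, an inositol kinase, rose (2.63 and 3.21 against 0.425 and 0 CPM, 3.37 ± 0.67, adjusted p = 0.15 without BaP replicate 2). PARD3B, a polarity gene, fell from 4.08 and 3.75 CPM with vehicle to 0.375 and 0.468 CPM with BaP (-3.09 ± 0.46, adjusted p = 0.057 without BaP replicate 2), and SDK1, an adhesion gene, fell from 4.84 and 4.88 CPM with vehicle to 1.88 and 0.602 CPM with BaP (-2.52 ± 0.42, adjusted p = 0.28 without BaP replicate 2). CAPN3 (0.7503 and 0.0669 against 1.95 and 1.88 CPM, adjusted p = 0.63 without BaP replicate 2) and EFR3B (0 and 0.201 against 1.36 and 1.13 CPM, adjusted p = 0.27 without vehicle replicate 1) were lower with BaP, with values in BaP replicate 1 below the level of 3 counts.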

How the data were processed

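Poly-A RNA of 8 HepG2 libraries was sequenced, and the 4 libraries at 24 h are reported. Per the submitters' processing notes the authors used Bowtie 0.12.7, RSEM 1.1.7 and edgeR (version not given), and the annotation was Ensembl release 58, per the file names. The deposited expected counts per gene are RSEM estimates, without normalisation. The deposited fraction column, the estimated share of transcript molecules, gave length-corrected levels that are not printed here. The build of the genome was not given in the sources used here. Transcript-level files were not used here.

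Names were found for 70.8% of gene IDs, which held 96.1% of the counts, from a table of gene symbols and GENCODE 29. Expected counts were rounded. Genes were kept by filterByExpr (minimum count 10, minimum total 15), which left 14746, scaled by edgeR's TMM factors, and fitted to all 8 libraries with edgeR 4.0.16 (R 4.3.3), quasi-likelihood, robust, 1 mean per group. Tests were two-sided with Benjamini-Hochberg adjustment over all genes tested. The SE is the fold change divided by the square root of F. The fit was tested on simulated data. A deviation that replicates 1 and 2 of BaP 24 h and vehicle 24 h share was looked for and the correlation of replicate differences was 0.06 (0.42 between the 12 h groups), so a pairing by number was not shown at 24 h. Alternatives were DESeq2 1.42.0, edgeR's exact test, other scaling, no filter, thinning, posterior mean counts and leaving out libraries, and, chosen after seeing the data, a correction for mRNA length and GC content (mgcv 1.9.3, 13525 genes). Lengths, GC and spans are from GENCODE 29 and promoters from RefSeq (GRCh38.p14, 250 bases before to 50 after a start).

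The members and 54 gene lists were chosen with earlier results of these data known. Of 1380 list entries 22 matched no ID. Genes named are the 20 largest rises and falls at 5 CPM or more, the 10 largest gains and losses in CPM, the 5 largest changes each way below 5 CPM, up to 4 members per list by p, the 5 largest differences from 12 h each way, and a set of pathway genes. The rule applies to called genes whose groups did not overlap, apart from that set. Non-overlap in genes named by the rule therefore follows from the choice. A few genes chosen this way are left out here. Other list members were named after their values were seen. Reads are not independent molecules, so floors cover counting error only.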

Additional observations from a re-analysis of the deposited data

Results flagged for a closer look

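Results are given here because the response to BaP differed between 24 h and 12 h by the test of the difference in edgeR. Values are log2 of the 24 h response minus the 12 h response, with 2 libraries in each of the 4 groups and no library shared between the times.

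Among genes that fell less at 24 h the difference was 3.21 ± 0.41, adjusted p = 0.00091 for SNX29, 2.32 ± 0.46, adjusted p = 0.026 for BTBD9, 2.24 ± 0.20, adjusted p = 3.2e-05 for SHANK2, 1.99 ± 0.18, adjusted p = 3.5e-05 for PRKCA, 1.91 ± 0.21, adjusted p = 0.00024 for TTC28, 1.78 ± 0.23, adjusted p = 0.0012 for PTPRG, 1.12 ± 0.22, adjusted p = 0.022 for EXOC4 and 1.1004 ± 0.22, adjusted p = 0.028 for TLN2. Of 33 very long genes tested, 15 differed in this direction and 0 in the other, a list chosen in part for genes that fell at 12 h, which favours this direction.

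The rise was smaller at 24 h in GCLM (-1.51 ± 0.23, adjusted p = 0.0031), OSGIN1 (-1.46 ± 0.17, adjusted p = 0.00028) and ABHD4 (-1.12 ± 0.17, adjusted p = 0.0033), and HMOX1, higher at 12 h, did not pass at 24 h (-1.75 ± 0.25, adjusted p = 0.0039). The change was more positive at 24 h in PLTP (0.92 ± 0.19, adjusted p = 0.035) and ACSL5 (0.96 ± 0.18, adjusted p = 0.02).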

How the results depend on the processing

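Of 161 genes taken by the naming rule, 155 were called, 57 of these passed in every alternative computed, 97 lost the call on leaving out 1 library or more, and 0 reversed. With all libraries the count of higher genes was 458 and of lower genes 324. DESeq2's Wald test called 303 higher genes, a fit to the 24 h libraries alone 235 higher and 144 lower, and thinning all libraries to the same depth 221 and 160. No filter gave 559 lower genes, and the correction for mRNA length and GC content gave 730 higher and 592 lower. Leaving out 1 library of 24 h gave 95 to 1230 higher and 74 to 726 lower genes, lowest without vehicle replicate 1 and highest without BaP replicate 1. A replicate block gave 431 higher and 307 lower genes at 24 h and 67 and 13 for the difference between times, and 10 of the named genes lost their call under it. The correlation of replicate differences was 0.06 between the 24 h groups and 0.42 between the 12 h groups, so a pairing by number was not shown at 24 h.

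The difference between 24 h and 12 h was called in 68 genes in the positive and 12 in the negative direction. No filter gave 171 and 69, thinning 41 and 6, and leaving out 1 of the 8 libraries 24 to 249 and 4 to 99, lowest without vehicle 24 h replicate 1 and highest without BaP 24 h replicate 1. The cause was not tested, apart from the lower counts under thinning, which by construction has fewer reads. Depth in BaP replicate 1 limits genes with few counts: 3651 of the tested genes had under 10 counts there, against 579 in BaP replicate 2.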
